A study of Mus musculus with 6 samples.

Results

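The genes described are those of the motor proteins that walk on actin and microtubules, apart from the conventional (class II) myosins: unconventional myosins, kinesins and cytoplasmic dyneins. They were chosen by symbol, as Myo, Kif, Dync, Dynll, Dynlr or Dynlt followed by a number or letter code, which gave 80 of the 55573 rows of the count table. Of these, 25 are unconventional myosins, 38 are kinesins, 7 are heavy, intermediate or light intermediate chains of dynein and 10 are dynein light chains, 1 of which is a pseudogene. All animals were C57BL/6 mice that carried floxed alleles of both Myh9 and Myh10, the heavy chain genes of nonmuscle myosin IIA and IIB. The viral vector AAV2 had been injected into the vitreous of the eye 2 weeks before the retinas were taken. The vector carried Cre recombinase in the libraries labelled dKO (3 libraries) and GFP in the libraries labelled WT (3 libraries), so that the WT animals also carried the floxed alleles. Every library pooled 3 retinas, each from its own mouse, and held the total RNA of cells sorted as retinal ganglion cells (RGCs), whose axons make up the optic nerve. The age of the mice and the promoter that drove Cre were not given in any source used here. The study addressed optic nerve regeneration after deletion of nonmuscle myosin II, and the question followed here is which of the other cytoskeletal motors these cells expressed and whether any of them differed with Cre.

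Motor proteins turn the energy of ATP into steps along a filament. Most kinesins walk to the plus end of microtubules, which in an axon points away from the cell body, and cytoplasmic dynein walks to the minus end, so that kinesins carry organelles and vesicles outward and dynein carries signals and degradative organelles back. Unconventional myosins work on actin, where they tether or move membranes, drive endocytosis and extend filopodia. A further set of kinesins builds and moves the mitotic spindle and is mostly used by dividing cells.

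Many of the motors have close paralogs, and the printed stretches of coding sequence show which of them short reads can and cannot tell apart. They come from GENCODE M21 transcripts (GRCm38), are written 5′ to 3′ in coding direction, and are numbered from 1 at the first base of the start codon. The Tctex-type light chain genes Dynlt1a (minus strand), Dynlt1b (plus strand), Dynlt1c (plus strand) and Dynlt1f (minus strand) lie together on chromosome 17. The 339-base coding sequences of Dynlt1a, Dynlt1c and Dynlt1f were identical, and that of Dynlt1b differed from them at 1 base, C21A, which is in capitals in the first 60 coding bases.
Dynlt1a: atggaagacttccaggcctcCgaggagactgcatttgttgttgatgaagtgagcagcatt
Dynlt1b: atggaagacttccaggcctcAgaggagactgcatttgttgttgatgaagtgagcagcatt
Counts of these 4 genes, between 2 and 17 in all 6 libraries together, are therefore uncertain between copies. They may also be too low for the 4 together, since the handling of reads with several matches is not given. Noncoding exon bases of the copies were not compared. The pairs on which most of the comparison rests are much less alike. Kif5a (chromosome 10, minus strand) and Kif5c (chromosome 2, plus strand) shared 73.2% of aligned coding bases, and their longest identical run, in capitals, had 23 bases.
Kif5a: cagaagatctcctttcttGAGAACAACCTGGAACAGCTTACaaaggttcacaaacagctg
Kif5c: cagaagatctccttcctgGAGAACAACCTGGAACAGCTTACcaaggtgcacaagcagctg
The dynein intermediate chains Dync1i1 (chromosome 6, plus strand, the 60 bases at chr6:5961880-5961939) and Dync1i2 (chromosome 2, plus strand, the 60 bases at chr2:71248826-71248885) shared 72.3%, with a longest identical run of 17 bases in capitals.
Dync1i1: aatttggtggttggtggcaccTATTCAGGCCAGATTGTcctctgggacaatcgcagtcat
Dync1i2: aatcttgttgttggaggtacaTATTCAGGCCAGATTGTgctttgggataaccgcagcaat
The LC8 light chains Dynll1 (chromosome 5, minus strand, chr5:115300522-115300581) and Dynll2 (chromosome 11, minus strand, chr11:87983881-87983940) were the closest of these pairs, with 81.3% of coding bases identical and a longest identical run of 16 bases.
Dynll1: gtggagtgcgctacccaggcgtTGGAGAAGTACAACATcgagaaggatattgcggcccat
Dynll2: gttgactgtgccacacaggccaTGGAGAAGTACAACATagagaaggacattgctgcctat

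The depth behind these values was small. Library totals were 4569880 to 6146226 counts, of which 1 ribosomal RNA row took 64.2% to 92.8%, which left 1636581 counts for all other genes in dKO replicate 3 and 346037 to 576060 in the other 5 libraries. Levels are given as CPM, a count relative to its library's size after scaling between libraries by TMM (trimmed mean of M values). Myh9 was at 63.7, 66.2 and 58.2 CPM in the libraries labelled dKO and 63.6, 68.4 and 60.7 CPM in those labelled WT, and Myh10 at 19.2, 20.6 and 14.2 CPM against 19.9, 20.0 and 16.3 CPM. Neither targeted gene was detectably lower (edgeR quasi-likelihood test, adjusted p = 0.908 and 0.735), and since counts cover the whole gene they do not check the floxed exons. The 12 RGC markers listed were all detected but together made up 33.0 to 35.1 CPM in the libraries labelled dKO and 25.6 to 29.8 CPM in those labelled WT. Markers of Müller glia summed to 2979 to 3158 CPM against 2826 to 2934 CPM, those of microglia and macrophages to 723 to 743 CPM against 651 to 734 CPM, and those of rods to 319 to 397 CPM against 165 to 194 CPM. Of 7 tested rod markers 6 rose (edgeR adjusted p under 0.05), while 0.734% of all genes tested were called higher. Bipolar cell markers summed to 105.6 to 109.9 CPM in the libraries labelled dKO and 141.8 to 155.2 CPM in those labelled WT. Of 5 tested 3 fell (edgeR adjusted p under 0.05), while 1.18% of all genes tested were called lower. Per kb of exon the Müller glia list came to 997 and 923 CPM per kb in the libraries labelled dKO and WT and the RGC list to 12.9 and 10.3 CPM per kb, so markers of other retinal cells were far above those of the labelled type. In such bulk samples, fewer cells of a type and less RNA per cell cannot be told apart. The labels do not say whether replicates of a group share mice, and the p-values therefore rest on a spread between libraries that may be technical.

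Most motor genes were detected. A count in at least 1 library was found for 73 of the 80 (91.25%), against 70.0% of the 21980 protein-coding genes of the table. The 7 with no count were Myo3a, Myo7b, Myo18b, Kif2b, Kif12, Dynlrb2 and the pseudogene Dynlt1-ps1, and 3 counts over the 6 libraries, the floor that a count of 0 allows, would be 0.0826 CPM. Enough counts for a test were found for 38 members (47.5%, against 37.7% of protein-coding genes), namely 14 unconventional myosins, 15 kinesins, 5 dynein chains and 4 light chains. Their counts summed over 6 libraries to between 100 for Myo1d and 3562 for Dync1h1, with a median of 323.5, and the 35 detected but untested members held at most 77 counts each.

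Levels of different genes were compared per length, as CPM per kb of merged exons. A cargo kinesin, a dynein light chain, a myosin and the dynein heavy chain led the 4 classes at much the same level. Kif1a, the kinesin-3 motor of synaptic vesicle precursors, was at 6.77 ± 0.66 CPM per kb in the libraries labelled dKO and 6.93 ± 0.39 in those labelled WT (SD, n = 3 each). Dynlrb1, the roadblock light chain, was at 7.41 ± 0.37 and 6.25 ± 0.67 CPM per kb in the libraries labelled dKO and WT, Myo6 at 6.99 ± 0.44 and 6.27 ± 0.12, and Dync1h1, the heavy chain that holds the motor of cytoplasmic dynein, at 6.21 ± 0.29 and 6.25 ± 0.34. Over the 6 libraries the values of these 4 overlap, so their order is not fixed, and their means over all 6 libraries lay between the percentiles 93.9 and 94.5 of the tested protein-coding genes. Below them came Kif5c at 4.91 ± 0.31 and 4.56 ± 0.50 CPM per kb, then Dynll2, Kif1c, Kif1b and Kif5b, whose means lay between 3.56 and 3.95 CPM per kb in the libraries labelled dKO and between 3.35 and 4.11 CPM per kb in those labelled WT. Myo1d was the lowest tested member, at 0.40 ± 0.12 and 0.41 ± 0.12 CPM per kb. Merged exons include those of every annotated isoform, and dividing instead by the longest coding transcript raised 7 of the 38 levels by over 1.5 times, among them Dync1i2 (by 3.15 times, to 3.92 and 3.24 CPM per kb), Kif1b (to 6.12 and 6.36) and Myo6 (to 10.6 and 9.56).

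**Figure D1:**
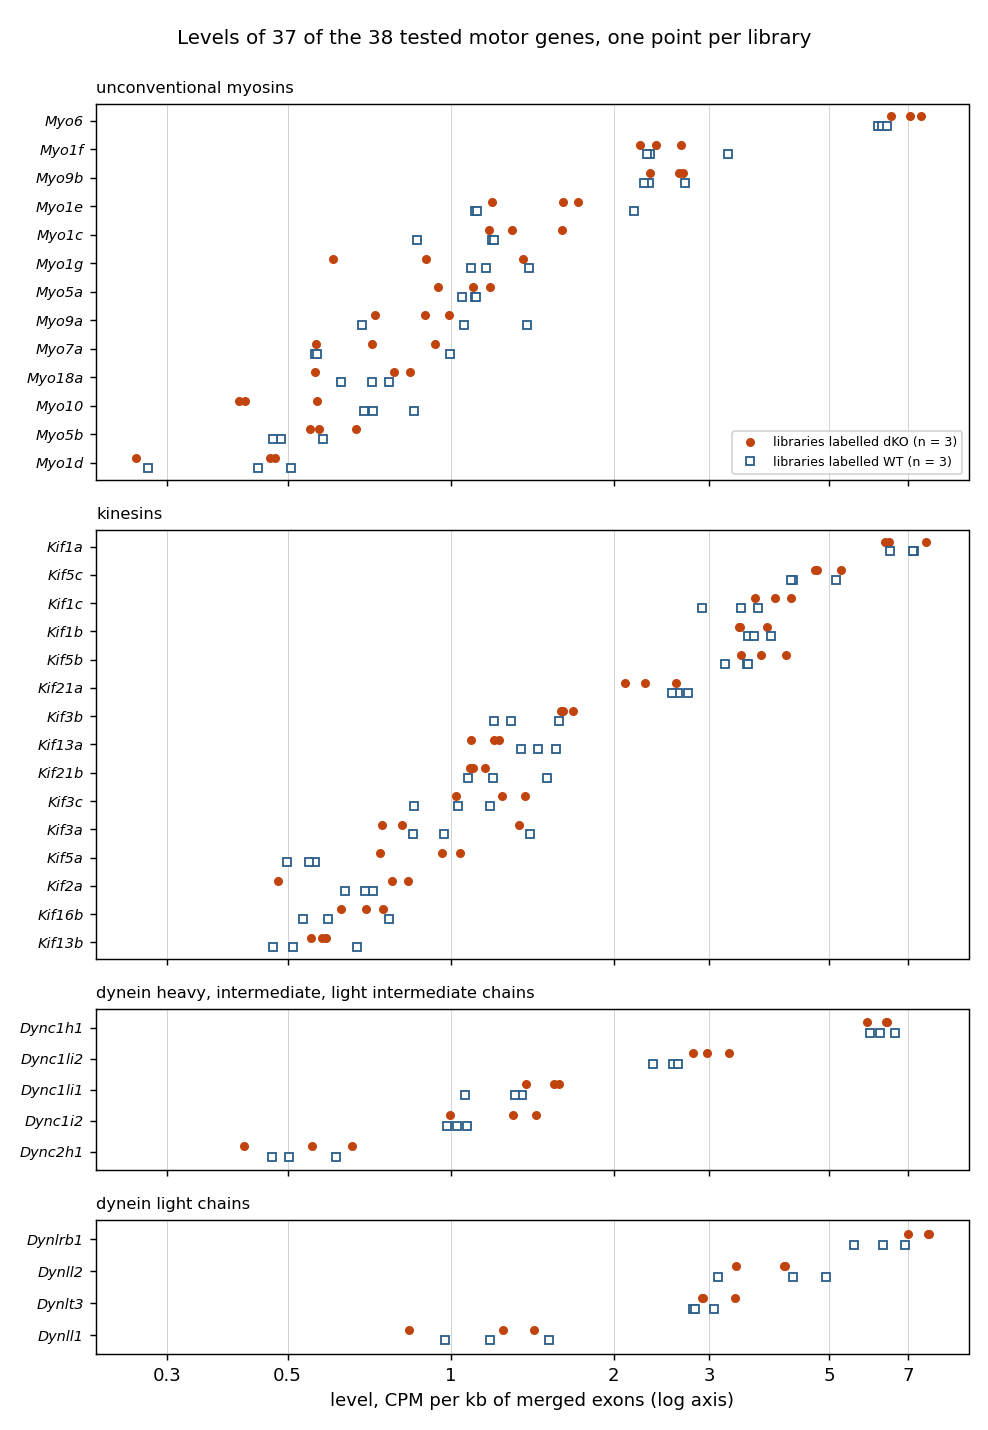
Levels of 37 of the 38 tested motor genes in CPM per kb of merged exons on a log axis, 1 point per library, with the libraries labelled dKO (filled, n = 3) above those labelled WT (open, n = 3) in each row. Kif1a, Dynlrb1, Myo6 and Dync1h1 lie at the right, with group means of 6.21 to 7.41 CPM per kb, and Myo1d at the left with 0.40 and 0.41, and in most rows the filled and open points share the same range.

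Summed over all 80 members, motor genes took 699 ± 16.0 CPM in the libraries labelled dKO and 681 ± 2.40 CPM in those labelled WT (SD, n = 3 each). By class the sums were 317 ± 9.31 and 313 ± 5.34 CPM for kinesins, 206.8 ± 6.27 and 200.5 ± 5.36 CPM for unconventional myosins, 144.3 ± 5.47 and 136.8 ± 4.997 CPM for dynein heavy, intermediate and light intermediate chains, and 31.2 ± 1.81 and 30.8 ± 2.78 CPM for light chains. The ranges of the 2 groups overlapped in each class, and no class sum was tested.

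None of the 38 tested motor genes passed the test between the libraries labelled dKO and WT (quasi-likelihood test of edgeR with Benjamini-Hochberg adjustment over 8444 genes, adjusted p under 0.05). Among all genes tested 0.734% of genes were called higher and 1.18% lower, 1.92% in all, and DESeq2 and limma-voom also called no motor gene. At an unadjusted p under 0.05 there were 3 members, Kif5a and Dync1li2 above and Myo10 below their WT values, which is 7.89% of the members against 12.5% of all genes. The fold change was positive for 22 members and negative for 16, and its median on the log2 scale was 0.051, against -0.0007 over all genes. Within the 38, the 95% interval of the fold change lay inside 2-fold in either direction for 36, the exceptions being Kif5a and Myo10, and inside 1.5-fold for 24. The 3 dKO and 3 WT values did not overlap for 9 members (23.7%, against 17% of all genes tested), of which 7 were higher (18.4%, against 8.66%) and 2 lower (5.26%, against 8.31%) in the libraries labelled dKO. Among the 7 were Kif5a, Kif3b, Dync1li1, Dync1li2, Dynlrb1 and Myo6, and the 2 were Kif13a and Myo10. The count depended on the setting: with library-total scaling 6 members did not overlap (15.8%, against 20.9% of all genes), and without WT replicate 2 the share was 26.8%, against 27.7%. Without any of the other 5 libraries it was 28.2% to 39.02%, against 25.6% to 29.3%.

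**Figure D2:**
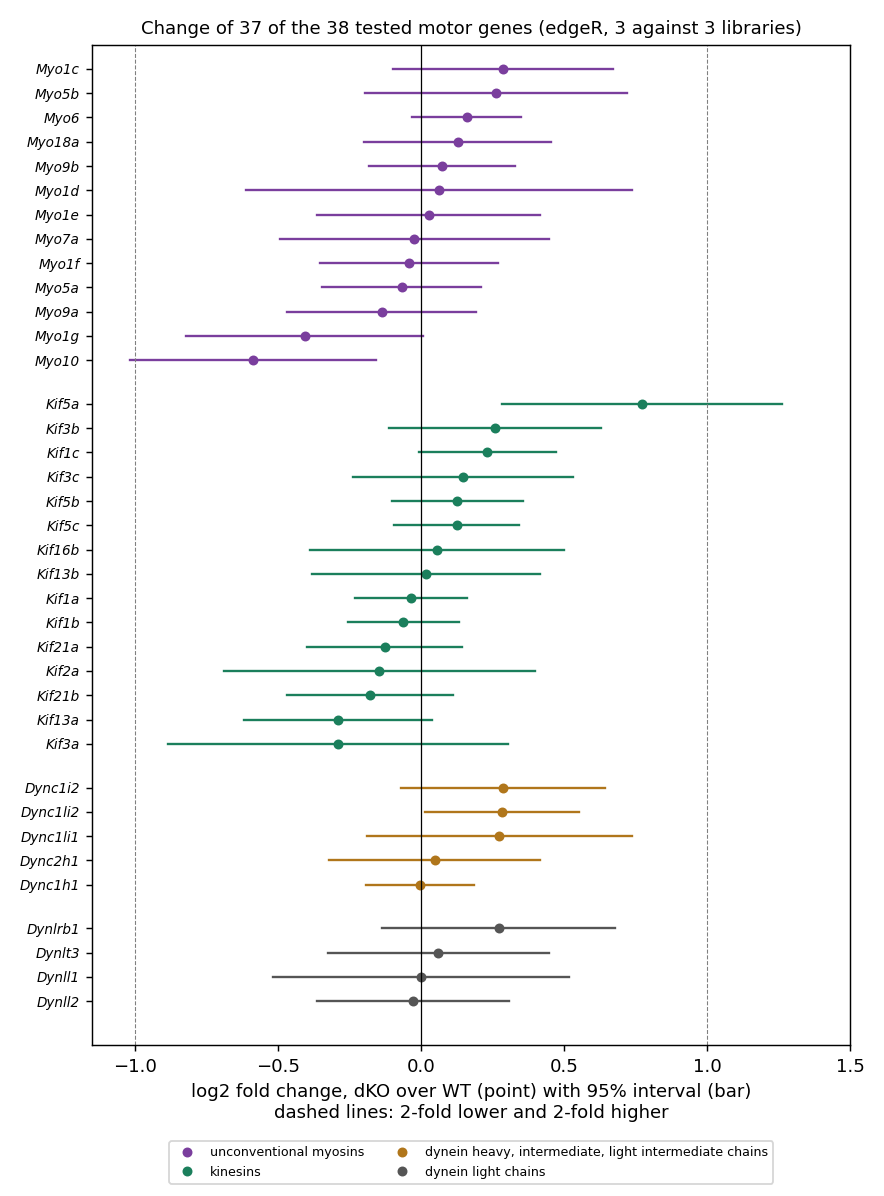
Fold change of 37 of the 38 tested motor genes between the libraries labelled dKO and WT on the log2 scale (point) with its 95% interval (bar), coloured by class, with dashed lines at 2-fold. The intervals of Kif5a and Myo10 reach past the dashed lines, those of Kif5a, Dync1li2 and Myo10 leave out 0, and the others drawn include 0.

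The unconventional myosins had a median log2 fold change of 0.044 over their 14 tested genes, and none was called (smallest adjusted p 0.174, edgeR). Myo10 (chromosome 15, 25622525 to 25813673, GRCm38), which moves to the tips of filopodia and carries integrins there, had the smallest p. It was at 4.22, 4.13 and 5.75 CPM in the libraries labelled dKO and 6.99, 7.29 and 8.67 CPM in those labelled WT. Every dKO value lay below every WT value. The log2 fold change was -0.59 ± 0.22 (SE; edgeR adjusted p = 0.174, and 0.104 to 0.781 over the alternatives tried), and it kept its sign except where libraries were scaled by their totals. That scaling shifted the median of all genes by 1.21 on the log2 scale, and relative to this shift Myo10 stood at -0.54.

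Myo6, the only myosin known to walk to the minus end of actin, in endocytosis and at the Golgi, was the most abundant unconventional myosin. It had 89.2, 78.6 and 85.3 CPM in the libraries labelled dKO and 74.3, 75.7 and 77.3 CPM in those labelled WT. The dKO values were all higher, the closest by little more than 1 CPM, and the log2 fold change was 0.16 ± 0.10 (SE; edgeR adjusted p = 0.515). Müller glia markers, listed above, also had higher sums in the libraries labelled dKO, without overlap. Of 8 tested, none was called (smallest edgeR adjusted p 0.505). Fold changes were positive for 6 and negative for 2, with a median of 0.13 on the log2 scale. The groups did not overlap for 4 of the 8, all higher in the libraries labelled dKO (50%, against 8.66% of all genes tested). The part of Müller glia in the Myo6 values was not tested.

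The class I myosins link membranes to actin. Myo1g and Myo1f are class I myosins found mostly in blood cells. Myo1g had 4.22, 9.46 and 6.27 CPM in the libraries labelled dKO and 8.09, 7.604 and 9.69 CPM in those labelled WT, with overlap (log2 fold change -0.41 ± 0.21, SE; edgeR adjusted p = 0.413). Beside it, the T and NK cell markers summed to 20.9 to 23.8 CPM in the libraries labelled dKO and 20.4 to 23.8 CPM in those labelled WT. Of 3 tested, Gzma, a granzyme of cytotoxic cells, fell to 2.57 ± 1.10 CPM in the libraries labelled dKO, against 5.36 ± 0.72 CPM in those labelled WT (SD, n = 3 each; log2 fold change -1.01 ± 0.28, SE; edgeR adjusted p = 0.0369). The other 2 tested T and NK cell markers had positive fold changes, the larger at 0.38 on the log2 scale, and the median of the 3 was 0.078. B and plasma cell markers summed to 49.7 to 59.2 CPM against 55.4 to 64.02 CPM. What part these cells had in the Myo1g values was not tested. Per length, Myo1f came next after Myo6, at 2.43 ± 0.22 CPM per kb in the libraries labelled dKO and 2.63 ± 0.54 in those labelled WT (SD, n = 3 each). Myo9b, a myosin with a RhoGAP domain, was within its spread of Myo1f at 2.55 ± 0.19 and 2.44 ± 0.24 CPM per kb, and Myo1e, a long-tailed class I myosin of endocytosis, followed at 1.51 ± 0.28 and 1.47 ± 0.62. Values of the 2 groups overlapped for Myo1f, Myo9b and Myo1e (edgeR adjusted p = 0.946, 0.878 and 0.975).

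Myo5a, which carries vesicles and endoplasmic reticulum through the actin of neurons, was close to equal, at 15.9 ± 1.74 CPM in the libraries labelled dKO and 16.1 ± 0.51 CPM in those labelled WT (SD, n = 3 each). Its 95% interval on the log2 scale ran from -0.35 to 0.21. The other tested members were Myo1c, Myo1d, Myo5b, Myo7a, Myo9a and Myo18a, whose fold changes on the log2 scale lay between -0.14 and 0.29. The photoreceptor and hair cell myosins Myo3b and Myo15 had 13 and 1 counts in all, and Myo3a had none, beside the higher rod markers of the libraries labelled dKO. Myo7a, which works in photoreceptors, hair cells and pigment epithelium, had 6.33 ± 1.60 and 6.07 ± 2.15 CPM in the libraries labelled dKO and WT. The sign of its fold change depended on the setting, with an adjusted p of 0.980 (edgeR).

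Among the 15 tested kinesins the median log2 fold change was 0.017, with 8 positive and 7 negative. The kinesin-1 heavy chains are the main motors of fast axonal transport, and Kif5a is the neuronal one that also carries neurofilaments. Kif5a (chromosome 10, 127225696 to 127263348, GRCm38) had 27, 30 and 103 counts in the libraries labelled dKO and 18, 11 and 15 counts in those labelled WT. Scaled, these were 5.18, 7.28 and 6.73 CPM against 3.93, 3.49 and 3.83 CPM. All 3 dKO values lay above all 3 WT values, and the lowest of them, replicate 1, was the nearest to WT.

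The log2 fold change of Kif5a was 0.77 ± 0.25 (SE), with a 95% interval of 0.28 to 1.26, an unadjusted p of 0.00238 and an edgeR adjusted p of 0.0862, so it did not pass. It was positive under each of the 16 alternatives, with an adjusted p of 0.0498 without dKO replicate 1, where it passed (log2 fold change 0.86), of 0.345 without dKO replicate 3 and of 0.723 with DESeq2. The share of genes called higher in the fit without dKO replicate 1 was 0.668%. Relative to the shift in the median of all genes, the value under library-total scaling was 0.79.

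Its paralogs, Kif5b, found in most cells, and Kif5c, enriched in neurons, were more abundant, at 3.78 and 3.43 CPM per kb for Kif5b and 4.91 and 4.56 for Kif5c in the libraries labelled dKO and WT, against 0.92 and 0.54 CPM per kb for Kif5a. Kif5b was at 27.4, 33.2 and 29.9 CPM in the libraries labelled dKO and 28.2, 25.7 and 28.3 CPM in those labelled WT. Kif5c was at 33.6, 34.0 and 37.6 CPM against 30.6, 30.4 and 36.7 CPM. Both overlapped between groups (log2 fold change 0.13 ± 0.12 and 0.12 ± 0.11, SE; edgeR adjusted p = 0.732 and 0.725). Of all kinesin-1 counts, Kif5a made up 7.83%, 9.77% and 9.06% in the libraries labelled dKO and 6.27%, 5.85% and 5.56% in those labelled WT, or 8.89% ± 0.98 against 5.89% ± 0.36 (SD, n = 3 each). The share was higher in each dKO library than in each WT library, but its 95% Wilson interval, which covers counting error only, ran from 5.43% to 11.1% in dKO replicate 1 and from 4.004% to 9.70% in WT replicate 1.

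The RGC markers did not all go one way. Of 12 listed, 4 were tested and 1 was called (edgeR), and 2 fold changes were positive and 2 negative. An unadjusted p under 0.05 in edgeR was reached by 3 of the 4 (75%, against 12.5% of all genes). Of these 3, 2 were higher and 1 was lower in the libraries labelled dKO. The groups did not overlap for 3 of the 4 (75%, against 17% of all genes tested), again 2 higher and 1 lower. Nefl, the light neurofilament chain, rose in the libraries labelled dKO to 7.16 ± 0.58 CPM, against 2.24 ± 0.72 CPM in those labelled WT (SD, n = 3 each; log2 fold change 1.63 ± 0.28, SE; edgeR adjusted p = 3.96e-05). Gap43, a growth-cone protein, was at 4.35 ± 0.92 and 2.59 ± 0.92 CPM (edgeR adjusted p = 0.120), and Tubb3, the neuronal beta-tubulin, at 4.16 ± 0.62 and 2.40 ± 1.36 CPM (edgeR adjusted p = 0.214). Tubb3 is counted with the tubulins, not with the RGC markers. Thy1, a surface protein of RGCs, was at 10.3 ± 1.13 and 10.7 ± 0.36 CPM, and the RGC and bipolar factor Isl1 was at 4.24 ± 0.94 CPM in the libraries labelled dKO and 7.05 ± 0.81 CPM in those labelled WT (edgeR adjusted p = 0.911 and 0.138). The summed RGC markers did not overlap between groups, as given above, but without Nefl, a choice made after seeing the data, they came to 25.7 to 28.6 CPM in the libraries labelled dKO and 23.8 to 26.8 CPM in those labelled WT, with overlap. What part the makeup of the sort had in the Kif5a values was not tested.

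**Figure D3:**
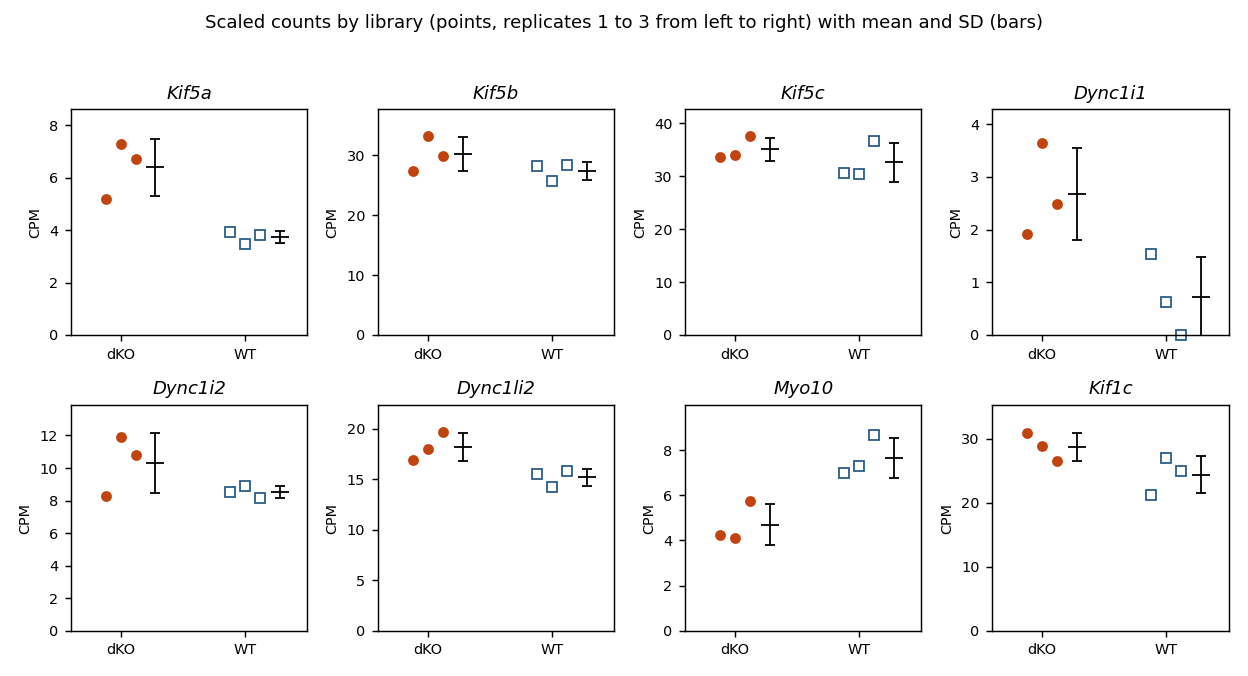
CPM of 8 motor genes in each library, with the libraries labelled dKO (filled) to the left of those labelled WT (open) and the mean and SD of 3 libraries beside each group. Kif5a, Dync1i1 and Dync1li2 do not overlap and are higher in the libraries labelled dKO, Myo10 does not overlap and is lower, and Kif5b, Kif5c, Dync1i2 and Kif1c overlap; the lower end of the SD bar of Dync1i1 in WT, where replicate 3 has no count, is cut at 0.

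Kinesin-3 motors carry synaptic vesicle precursors and dense-core vesicles over long distances, and they were the most abundant kinesin family, with a mean sum of 16.8 CPM per kb in the libraries labelled dKO and 16.7 CPM per kb in those labelled WT. Kif1a had 70.2, 59.2 and 60.1 CPM in the libraries labelled dKO and 66.9, 66.5 and 60.4 CPM in those labelled WT, and Kif1b, which also moves mitochondria, had 67.6, 59.9 and 60.3 CPM against 68.8, 62.4 and 64.0 CPM. These were among the most precise comparisons of all members, and their 95% intervals on the log2 scale ran from -0.23 to 0.16 and from -0.26 to 0.13. Kif1c, a kinesin-3 of many tissues, had 30.9, 28.9 and 26.5 CPM in the libraries labelled dKO and 21.2, 26.9 and 25.0 CPM in those labelled WT, with overlap (log2 fold change 0.23 ± 0.12, SE; edgeR adjusted p = 0.417).

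Kif13a, which moves recycling endosomes, was lower in the libraries labelled dKO, at 8.83, 9.95 and 9.73 CPM, than in those labelled WT, at 10.9, 12.7 and 11.7 CPM. Its values did not overlap, but it did not pass the test (log2 fold change -0.29 ± 0.17, SE; edgeR adjusted p = 0.481), and relative to the shift under library-total scaling it stood at -0.28. Kif13b and Kif16b, which work in endosome and membrane traffic, overlapped between groups.

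Kinesin-2 motors run intraflagellar transport in the cilium and carry cargo in axons. Kif3b was at 9.02, 9.46 and 9.08 CPM in the libraries labelled dKO and 6.77, 7.29 and 8.93 CPM in those labelled WT, so that all dKO values were higher, by little over the highest WT value (log2 fold change 0.26 ± 0.19, SE; edgeR adjusted p = 0.632). Its partner Kif3a was at 3.46 ± 1.16 CPM against 3.86 ± 1.03 CPM, with a log2 fold change of -0.29 ± 0.30 (SE; edgeR adjusted p = 0.760). Kif3c, the alternative partner in neurons, is less certain, because 40.7% of its exon bases overlap antisense genes and the strand setting of the counting is not given. The same holds for Kif2a, which depolymerizes microtubule ends, with 19.2% of its exon bases shared with Dimt1 on the other strand. Both overlapped between groups. The kinesin-4 motors Kif21a and Kif21b, which limit microtubule growth, had negative fold changes with overlapping values.

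The 11 mitotic kinesins had few counts, at most 77 over the 6 libraries for Kif11, and none passed the filter of the test with all libraries. Together they took 9.63 ± 1.03 CPM (range 8.45 to 10.3) in the libraries labelled dKO and 12.3 ± 1.53 CPM (range 11.1 to 14.03) in those labelled WT (SD, n = 3 each), and the sums did not overlap. Kif11, the spindle motor of kinesin-5, was at 1.64 ± 0.79 and 2.65 ± 1.24 CPM, and Kif20b, which works in cytokinesis, at 0.45 ± 0.28 and 1.02 ± 0.07 CPM. With no filter on low counts, 8 of the 11 had a negative fold change, none was called, none reached an unadjusted p under 0.05, and the smallest edgeR adjusted p was 0.747. On the log2 scale Kif4, Kif22 and Kif2c were positive in that fit, at 0.89, 0.50 and 0.25, against -0.49 for Kif11 and -1.25 for Kif20b. Kif20a and Kif4 are less certain, because 29.3% and 15.1% of their exon bases overlap an antisense gene. The sum of the 10 cycling cell markers was also lower, with 19.4 to 20.9 CPM in the libraries labelled dKO and 21.4 to 25.8 CPM in those labelled WT. Of their 3 tested members none was called and 1 reached an unadjusted p under 0.05 in edgeR, which was Mki67 at a log2 fold change of -0.66 ± 0.23 (SE; adjusted p = 0.132). The sums were not tested, and neither was the part of cycling cells in the mitotic kinesin sum.

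**Figure D4:**
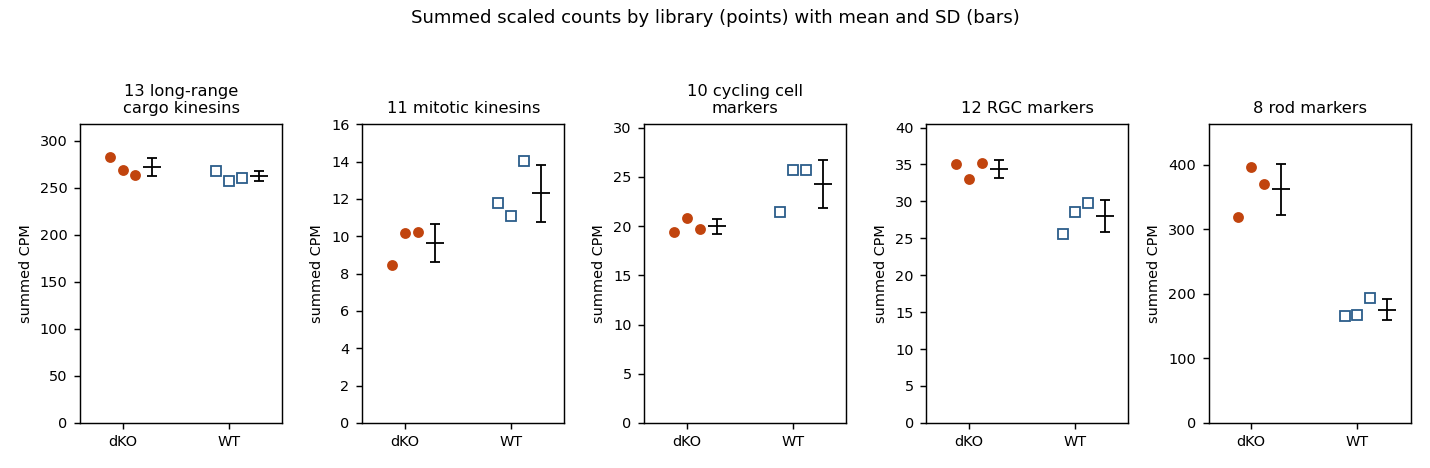
Summed CPM of 2 kinesin groups and 3 marker lists in each library (points), with the libraries labelled dKO to the left of those labelled WT and the mean and SD of 3 libraries beside each group. Long-range cargo kinesins overlap between groups, mitotic kinesins and cycling cell markers are lower and RGC and rod markers higher in the libraries labelled dKO.

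Cytoplasmic dynein is built on a heavy chain dimer with intermediate, light intermediate and light chains. The tested dynein chains had a median log2 fold change of 0.27, with 4 of 5 positive and none called (smallest adjusted p 0.363, edgeR). Dync1h1, with the highest count of all members, was at 99.997, 92.0 and 99.6 CPM in the libraries labelled dKO and 97.0, 103.6 and 93.1 CPM in those labelled WT. The groups overlapped, and the 95% interval on the log2 scale ran from -0.19 to 0.18, within 1.5-fold in either direction, with a sign that depended on the setting. Dync2h1, the heavy chain of the ciliary dynein, was at 8.87 ± 1.98 and 8.65 ± 1.25 CPM (SD, n = 3 each; edgeR adjusted p = 0.952).

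The light intermediate chains bind the cargo adaptors, and the values of both tested ones did not overlap, as for 17% of all genes tested. Dync1li2 (chromosome 8, 104417680 to 104443047, GRCm38) was at 16.9, 18.0 and 19.7 CPM in the libraries labelled dKO and 15.5, 14.3 and 15.8 CPM in those labelled WT. Dync1li1 was at 6.14, 5.34 and 6.01 CPM against 5.24, 4.12 and 5.10 CPM. The log2 fold change was 0.28 ± 0.13 for Dync1li2 and 0.27 ± 0.23 for Dync1li1 (SE), and neither passed (edgeR adjusted p = 0.363 and 0.706). For Dync1li2, 7.09% of exon bases overlap an antisense gene. The light intermediate chain of dynein-2, Dync2li1, had 33 counts in all in the libraries labelled dKO and 12 in those labelled WT, too few for the test, and its CPM overlapped between groups.

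The intermediate chains join the heavy chains to dynactin, and their paralogs had unlike values. Dync1i2, found in most cells, was at 8.25, 11.9 and 10.8 CPM in the libraries labelled dKO and 8.52, 8.87 and 8.16 CPM in those labelled WT, with overlap (log2 fold change 0.29 ± 0.18, SE; edgeR adjusted p = 0.544). Dync1i1 (chromosome 6, 5725639 to 6028039, GRCm38), the intermediate chain enriched in neurons, had 10, 15 and 38 counts in the libraries labelled dKO and 7, 2 and 0 counts in those labelled WT. These were 1.92, 3.64 and 2.48 CPM against 1.53, 0.63 and 0 CPM, with no overlap, and the difference between the groups was widest at WT replicate 3, where the gene had no count.

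Dync1i1 had too few counts for the filter of the fit, so it is not among the 38, and it is described because it passed under other settings. With no low-count filter its log2 fold change was 1.74 with an edgeR adjusted p of 0.0328, and with a filter of at least 1 CPM in 3 libraries 1.71 and 0.0369. The shares of genes called higher in those fits were 0.38% and 0.752%. It did not pass with DESeq2 (adjusted p = 0.428). Single libraries decided it: the adjusted p was 0.0386 without WT replicate 1 (log2 fold change 3.09, 0.31% of genes called higher), 0.0644 without dKO replicate 1, 0.177 without WT replicate 2 and 0.367 without WT replicate 3 (1.14). In the fits with a filter, Dync1i1 met it through the libraries labelled dKO, where it was high, so those passes are no separate support. Among the libraries labelled WT only replicate 1 was above 1 CPM. Dync1i1 was fitted in only 7 of the alternatives. Of the counts of both intermediate chains, Dync1i1 made up 18.9%, 23.4% and 18.7% in the libraries labelled dKO and 15.2%, 6.67% and 0% in those labelled WT. The 95% Wilson intervals were 10.6% to 31.4% in dKO replicate 1 and 7.57% to 28.2% in WT replicate 1, and the upper end in WT replicate 3 was 10.7% (counting error only). The RGC markers are those given beside Kif5a, of which 4 were tested, 3 reached an unadjusted p under 0.05 (edgeR) and only Nefl was called. Their part was not tested.

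**Figure D5:**
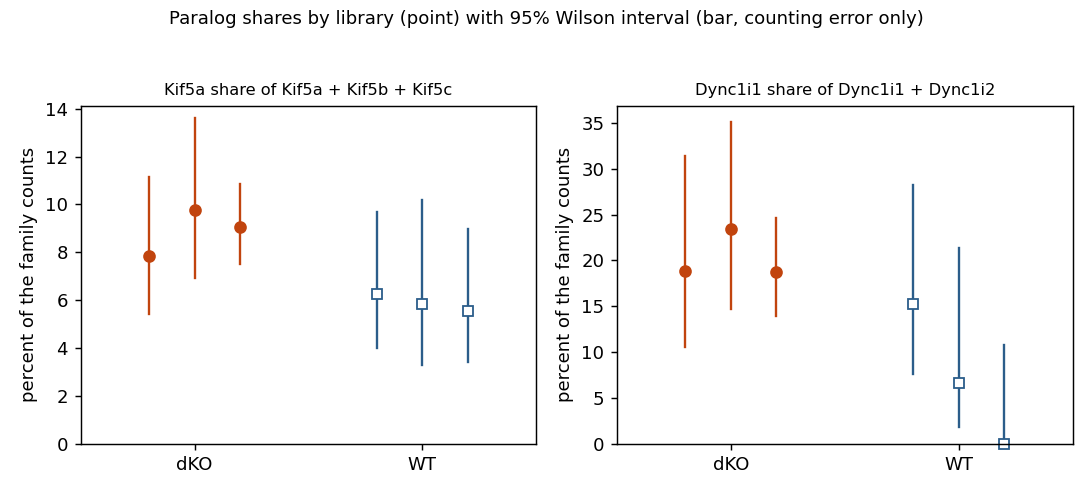
Share of Kif5a among all kinesin-1 counts (left) and of Dync1i1 among the counts of both intermediate chains (right), in percent, for each library, with 95% Wilson intervals for counting error, the libraries labelled dKO (filled) to the left of those labelled WT (open). Kif5a shares lie between 7.83% and 9.77% in the libraries labelled dKO and between 5.56% and 6.27% in those labelled WT, while Dync1i1 shares run from 18.7% to 23.4% and from 0% to 15.2%.

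The light chains bind adaptors and the intermediate chains. Dynlrb1 was at 7.68, 7.04 and 7.71 CPM in the libraries labelled dKO and 6.34, 6.97 and 5.61 CPM in those labelled WT, which did not overlap by a small margin (log2 fold change 0.27 ± 0.20, SE; edgeR adjusted p = 0.656). Dynlt3, of the Tctex type, was at 7.89 ± 0.65 and 7.47 ± 0.38 CPM, Dynll2 at 10.6 ± 1.21 and 11.3 ± 2.53 CPM and Dynll1 at 4.56 ± 1.17 and 4.76 ± 1.06 CPM in the libraries labelled dKO and WT (SD, n = 3 each). These 3 overlapped between groups, with edgeR adjusted p between 0.939 and 0.999, and the sign of the Dynll1 and Dynll2 fold changes depended on the setting.

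Partners of the motors were read from lists, and no member of any of them passed the test in edgeR. Dynactin, which makes dynein processive, had 12 of 12 genes tested, 1 at an unadjusted p under 0.05 (8.33%, against 12.5% of all genes) and a median log2 fold change of 0.066. Dctn2, its dynamitin subunit, was at 14.9 ± 1.11 CPM in the libraries labelled dKO and 10.8 ± 2.23 CPM in those labelled WT (adjusted p = 0.190), and Actr1a, the filament subunit Arp1, at 19.8 ± 1.63 and 16.9 ± 0.73 CPM (adjusted p = 0.400). Dctn6, a subunit of its pointed end, was at 2.46 ± 0.61 and 3.91 ± 0.56 CPM (adjusted p = 0.518). The groups did not overlap for these 3 genes, with Dctn2 and Actr1a above and Dctn6 below their WT values, which is 25% of the list against 17% of all genes tested. Of 16 tested dynein regulators and adaptors, with a median of 0.054, 2 reached an unadjusted p under 0.05 (12.5%, and also 12.5% of all genes). They were Bicd2, an adaptor for Golgi vesicles, at 11.05 ± 0.64 and 8.11 ± 2.03 CPM (adjusted p = 0.162), and Nin, a centrosomal adaptor, at 26.1 ± 4.48 and 21.6 ± 1.68 CPM (adjusted p = 0.275).

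The 20 tested kinesin light chains and adaptors had a median log2 fold change of -0.036, with 1 at an unadjusted p under 0.05 (5%, against 12.5% of all genes). This was Klc1, the kinesin-1 light chain of neurons, at 21.2 ± 0.48 CPM in the libraries labelled dKO and 16.9 ± 3.99 CPM in those labelled WT (edgeR adjusted p = 0.250), with no overlap. Groups did not overlap for 5% of this list, against 17% of all genes tested. Mapk8ip2, a scaffold of kinesin-1 cargo, came next at 2.98 ± 1.95 and 2.11 ± 1.02 CPM (edgeR adjusted p = 0.508). Of 17 tested myosin light chains and cargo adaptors, with a median of -0.006, 1 reached an unadjusted p under 0.05 (5.88%, against 12.5% of all genes). Calm3, a calmodulin gene whose product is the light chain of many unconventional myosins, was at 77.9 ± 5.89 and 61.3 ± 5.92 CPM (log2 fold change 0.34 ± 0.10, SE; edgeR adjusted p = 0.0501), without overlap. Genes without overlap made up 5.88% of this list, against 17% of all genes tested. Vezt, whose product binds Myo7a, was at 6.93 ± 0.71 and 8.41 ± 1.45 CPM (edgeR adjusted p = 0.571).

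Tubulins, the track of kinesins and dynein, had a median log2 fold change of 0.28 over 11 tested genes, with 10 positive and 4 at an unadjusted p under 0.05 (36.4%, against 12.5% of all genes), all 4 above their WT values. The 14 listed genes summed to 192.2 to 207.9 CPM in the libraries labelled dKO and 172.4 to 184.9 CPM in those labelled WT, without overlap, and the sum was not tested. Tubb3 was given above, and Tuba1b was at 18.1 ± 2.41 CPM in the libraries labelled dKO and 13.3 ± 2.94 CPM in those labelled WT (edgeR adjusted p = 0.224). Values overlapped between groups for both genes. They did not overlap for 2 of the 11 (18.2%, against 17% of all genes), Tuba1c at 3.68 ± 0.90 and 1.78 ± 0.68 CPM and Tubb2b at 7.17 ± 0.98 and 5.26 ± 0.78 CPM (edgeR adjusted p = 0.235 and 0.416). Genes of intraflagellar transport and the BBSome, the ciliary cargo of kinesin-2 and dynein-2, had a median of -0.12 over 15 tested genes. Among them 1 was at an unadjusted p under 0.05 (6.67%, against 12.5% of all genes), which was Bbs9 at 5.57 ± 0.24 and 3.88 ± 0.42 CPM (edgeR adjusted p = 0.326). Wdr35, a subunit of the retrograde complex, was at 2.88 ± 0.24 and 4.25 ± 1.06 CPM (edgeR adjusted p = 0.458). Of the axonemal dyneins 2 of 20 were tested, Dnal1 at 3.79 ± 0.49 and 1.94 ± 0.95 CPM and Dnah7b at 4.07 ± 0.94 and 3.34 ± 0.81 CPM (edgeR adjusted p = 0.275 and 0.849), with 1 at an unadjusted p under 0.05. A further list of 7 genes outside the rule held kinesins and Kif1bp, the gene of a kinesin-binding protein that is no motor. Of these 2 were tested, Kif1bp at 6.24 ± 1.16 and 8.73 ± 1.16 CPM and the kinesin Stard9 at 3.74 ± 0.72 and 4.75 ± 0.55 CPM (edgeR adjusted p = 0.388 and 0.764), again with 1 at an unadjusted p under 0.05. The 5 dynein-2 chains named otherwise had too few counts for a test.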

How the data were processed

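The authors deposited raw read counts per Ensembl gene for 6 libraries, not normalized. The submitters' processing notes name STAR 2.7.0d, DESeq2 1.22.2 and GRCm38. How reads were counted (program, strand setting, reads with several matches) is not given in the sources used here, so reads of a gene and of its antisense partner cannot be told apart and near-identical copies are uncertain.

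All genes were fitted with edgeR 4.0.16 in R 4.3.3: filterByExpr by group with its minimum count of 10 and minimum total of 15, TMM scaling, quasi-likelihood F test, two-sided, group as the only term, Benjamini-Hochberg adjustment over 8444 genes, calls at 0.05. The common dispersion, as a biological coefficient of variation, was 0.0820, and each standard error is |log2 fold change| over the square root of the F statistic. CPM uses TMM-scaled library sizes with the ribosomal RNA row included, and gene length is the merged exon length in GENCODE M21, where 55480 of the IDs were found. Wilson intervals cover counting error only. Members, gene lists and the rule for named genes were chosen with earlier results of these data known. The rule took, in each class, the 4 tested genes with the smallest p and the 4 with the highest level per kb, and from each partner list the 2 with the smallest p where none was called. Kif20b, Kif11, Kif4, Kif22, Kif2c, Myo7a, Myo5a, Kif3a and Dync1i1 were added after their values were seen, as were marker genes named beside Kif5a. A gene that the rule names is not reported here and is not drawn; it stayed in every fit and count.

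The alternatives tried were scaling by RLE, by upper quartiles or by library totals, a fit of every gene with a count, a filter of at least 1 CPM in 3 libraries, DESeq2 1.42.0, limma-voom (limma 3.58.1), the replicate number as a block, no ribosomal RNA row, dKO replicate 3 thinned to the depth of the others, each library left out and adjusted p under 0.1. The length of the longest coding transcript was added after seeing the data. On data simulated for this comparison over 8057 genes, with 200 changed, 136 were called, 9 of them false. Genes were drawn with the common dispersion at the depth of the real libraries, and the changed genes were picked above a minimum mean count. A spread that differs between genes, and other depths, were not simulated. The test recovered 28.4% of the 1.5-fold, 78.1% of the 2-fold and 100.0% of the 4-fold changes.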

Additional observations from a re-analysis of the deposited data

How the results depend on the processing

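No motor gene was called lower in any fit. Of higher calls, 1 was made with no low-count filter and 1 with the CPM filter (Dync1i1 in both), 1 at an adjusted p under 0.1 (Kif5a), and 0 to 1 when single libraries were left out (Kif5a without dKO replicate 1, Dync1i1 without WT replicate 1). Over all genes 162 calls became 3 with library-total scaling, 75 with DESeq2, 257 at an adjusted p under 0.1 and 90 to 186 without single libraries, the lowest without WT replicate 1. The count of 9 motor genes without overlap became 11 to 16 with single libraries left out, where with only 2 libraries in a group the share of all genes also went to 25.6% to 29.3%. The causes were not tested. With the replicate number as a block, 158 genes and 0 motor genes were called. Same-numbered libraries correlated at 0.026, 0.013 and 0.029 in their deviations, each under 0.1. Each library correlated best with its own number. However, deviations from the mean of a group of 3 libraries cancel out within it, so some pairs must come out positive. Whether libraries were paired cannot be told from these values. The sign differed from the reported one for 3 motor genes with upper-quartile scaling, 2 once the ribosomal RNA row was dropped and 5 with dKO replicate 3 thinned, none of them among the 9. It differed for 1 each with DESeq2, limma-voom and the replicate block, also not among the 9. With library-total scaling, which shifted the median of all genes by 1.21 on the log2 scale, it differed for 16 of 38, with Myo10 and Kif13a of the 9 among them. Taken as percent of the counts outside the ribosomal RNA row, with no TMM scaling, class levels are on another scale. The log2 ratio of the sums, dKO over WT, then went from 0.018 to 0.034 for kinesins and from 0.045 to 0.062 for unconventional myosins. It went from 0.077 to 0.094 for dynein heavy, intermediate and light intermediate chains and from 0.020 to 0.039 for light chains. These ratios were not tested. Low counts limit the comparison, since 42 of the 80 genes could not be tested. The simulation recovered 28.4% of 1.5-fold changes. That share is over genes of the whole table, with the common dispersion for all and without varying depth, and not for the motor genes alone.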
